A study of Mus musculus with 9 samples.

Results

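Fc gamma receptors are the cell surface receptors of leukocytes for immunoglobulin G (IgG), and the 5 genes described here are the mouse receptors Fcgr1, Fcgr3, Fcgr4 and Fcgr2b and the signalling chain Fcer1g. They were chosen by symbol among the 25526 names of the deposited table, in which all 5 were found, and all 5 were among the 14540 genes tested. The table gives FPKM, that is sequenced fragments per length of transcript and per size of library, for the lungs of 9 mice. These were 3 mice given PepNzymeSOD-CAT (the nanozyme group), 3 mice with a pulmonary fibrosis model (the model group) and 3 normal mice. Nanozymes are man-made catalysts that do the work of enzymes, and this inhaled polypeptide one is named for superoxide dismutase and catalase, which break down reactive oxygen species. The sources used here do not give the strain, age or sex of the mice, how fibrosis was induced, doses or times, and do not spell out whether the nanozyme mice also carried the fibrosis model.

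Fc gamma receptors bind the constant part of IgG in immune complexes and on coated particles. The activating receptors Fcgr1, Fcgr3 and Fcgr4 signal through the chain encoded by Fcer1g, whose tail carries an activating tyrosine motif (ITAM) that recruits the kinase Syk and leads to phagocytosis, oxidant release and cytokine production. Fcgr2b is the inhibitory receptor of the family: its own tail carries an inhibitory tyrosine motif (ITIM) that recruits the inositol phosphatase encoded by Inpp5d. In lung these genes are known from macrophages, monocytes and neutrophils, with Fcgr3 also in NK cells and Fcgr2b also in B cells.

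In GENCODE vM21, on the build GRCm38, all 5 are protein-coding genes and 4 of them lie on chromosome 1. Fcgr2b (170958617 to 170976547, minus strand), Fcgr4 (171018920 to 171029761, plus strand) and Fcgr3 (171051174 to 171064935, minus strand) fall within 106.3 kb, and Fcer1g (171229572 to 171234365, minus strand) starts 164.6 kb further on. Fcgr1 lies on chromosome 3 (96282909 to 96293969, minus strand). The start regions of the 4 receptors are shown because the receptors moved together across the libraries but by different amounts. Each is 300 bases of RefSeq's GRCm38.p6 sequence, from 250 bases before the start of transcription to 50 bases after it, written 5′ to 3′ along the gene. Capitals mark matches to 2 motifs: GAGGAA (the box of the myeloid factor PU.1) and TTCNNNGAA (the GAS element of STAT factors).
Fcgr1 (chr3:96293920-96294219, minus strand): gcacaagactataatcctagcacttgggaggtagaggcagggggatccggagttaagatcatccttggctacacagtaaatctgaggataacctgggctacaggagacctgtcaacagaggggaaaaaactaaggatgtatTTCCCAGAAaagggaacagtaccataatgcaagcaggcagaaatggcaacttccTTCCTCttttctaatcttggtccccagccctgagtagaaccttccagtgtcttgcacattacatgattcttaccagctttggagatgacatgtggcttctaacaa
Fcgr3 (chr1:171059354-171059653, minus strand): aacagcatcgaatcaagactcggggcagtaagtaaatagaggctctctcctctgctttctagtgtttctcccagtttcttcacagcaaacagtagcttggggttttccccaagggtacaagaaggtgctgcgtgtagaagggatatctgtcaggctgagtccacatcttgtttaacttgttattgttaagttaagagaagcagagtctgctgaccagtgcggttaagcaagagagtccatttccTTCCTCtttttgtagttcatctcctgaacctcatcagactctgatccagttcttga
Fcgr4 (chr1:171018676-171018975, plus strand): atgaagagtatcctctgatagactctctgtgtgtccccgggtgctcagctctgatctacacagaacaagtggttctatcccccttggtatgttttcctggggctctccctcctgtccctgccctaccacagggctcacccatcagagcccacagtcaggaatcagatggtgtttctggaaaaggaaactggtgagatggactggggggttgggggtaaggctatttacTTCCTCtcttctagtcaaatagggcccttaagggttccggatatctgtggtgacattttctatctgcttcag
Fcgr2b (chr1:170976022-170976321, minus strand): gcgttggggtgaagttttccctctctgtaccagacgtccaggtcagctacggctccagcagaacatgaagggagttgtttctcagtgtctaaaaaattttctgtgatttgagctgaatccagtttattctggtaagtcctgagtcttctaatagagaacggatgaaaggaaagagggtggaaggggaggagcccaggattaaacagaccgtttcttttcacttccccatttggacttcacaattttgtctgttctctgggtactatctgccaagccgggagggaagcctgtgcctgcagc

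Both strands were searched, and no match overlapped another. An interferon response core and an ETS-IRF composite were searched as well, and their matches are not reported here. The PU.1 box was found in the windows of Fcgr1, Fcgr3 and Fcgr4, each time on the opposite strand, with its leftmost base at -55, -6 and -22 from the start. The GAS element was found in 1 of the 5 members, Fcgr1, at -109. The windows of the inhibitory receptor Fcgr2b and of Fcer1g held neither. Of the 32851 windows of this length in the RefSeq table, 28.3% held the PU.1 box and 8.3% the GAS element. Fcgr3 has another annotated start nearby, whose window holds the same PU.1 box at -15. The RefSeq windows of Fcgr3 and Fcgr2b lie inside the GENCODE spans given above, so the outermost GENCODE starts of these genes were not searched.

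The libraries had summed FPKM of 443746 to 519772, and depth is unknown because read counts were not used. On the first principal component of all tested genes, which held 62.8% of the variance, the score was -14.4 and -9.7 for nanozyme replicates 1 and 3 and 43.3 for nanozyme replicate 2. It was 39.5 to 61.2 for model libraries and -63.5 to -54.8 for normal libraries, so that nanozyme replicate 2 fell in the range of the model libraries. Tests of the members that involve the nanozyme group are therefore given with and without that library. It was picked from its values in these same data, so the fits without it are not independent tests. The submitters' library numbers follow the groups, with those of the nanozyme libraries apart from the others. A batch that followed the groups could not be told apart from them in any of the comparisons. All 10 lung epithelial and endothelial markers were at 36.8 FPKM or more in every library, and their sum was 35579 to 57796 FPKM in nanozyme lungs and 17694 to 27870 FPKM in model lungs, against 82170 to 103645 FPKM in normal lungs.

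Every member was higher in fibrosis model lung than in normal lung, and Fcgr4 was the member with the largest change. In bulk lung, more cells of a type and more RNA per cell cannot be told apart. Among the activating receptors, Fcgr1, the high-affinity receptor, had 21.5, 31.2 and 24.7 FPKM in model lungs, against 1.08, 1.53 and 1.43 FPKM in normal lungs. Its mean of 25.8 ± 4.94 FPKM in model lung and 1.35 ± 0.237 FPKM in normal lung (SD, n = 3 each) corresponds to a log2 change of 3.50 ± 0.50 (SE, adjusted p = 0.00174). The normal values lie close to the filter of 1 FPKM, where the pseudocount of 1 makes the log2 change smaller than the 19.1-fold ratio of the means.

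Fcgr3, the low-affinity activating receptor, was the receptor with the highest level in all 3 groups. It had 138, 229 and 168 FPKM in model lungs, against 16.5, 16.3 and 15.1 FPKM in normal lungs, a log2 change of 3.37 ± 0.39 (adjusted p = 0.000741). The lowest model library stood well above the highest normal one.

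Fcgr4, an activating receptor of monocytes, macrophages and neutrophils, had 71.2, 140 and 89.6 FPKM in model lungs, against 3.44, 2.60 and 2.58 FPKM in normal lungs. The means differed 34.9-fold, and the log2 change was 4.66 ± 0.41 (adjusted p = 0.000246). By size of log2 change it ranked 56th from the top of the 14540 genes.

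The inhibitory receptor Fcgr2b rose as well. It had 56.4, 170 and 104 FPKM in model lungs, against 11.04, 10.3 and 10.7 FPKM in normal lungs, and its log2 change of 3.11 ± 0.45 was the smallest of the 5 (adjusted p = 0.00179). The model libraries were spread over a 3.00-fold range, the widest of any member in that group, while the normal libraries stayed within 1.08-fold of each other.

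Fcer1g, the shared signalling chain, was the most abundant member. It had 375, 767 and 421 FPKM in model lungs, against 29.8, 38.3 and 34.2 FPKM in normal lungs, a log2 change of 3.83 ± 0.47 (adjusted p = 0.000913). Model replicate 2 was the highest of the 9 libraries for each of the 5 genes. The count of 5 of 5 members called higher stands against 17.4% of all tested genes called higher and 22.7% called lower, and the groups did not overlap upward at 23.5% of tested genes. A change as large as that of Fcgr2b, the smallest member change, was found at 1.44% of tested genes.

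**Figure D1:**
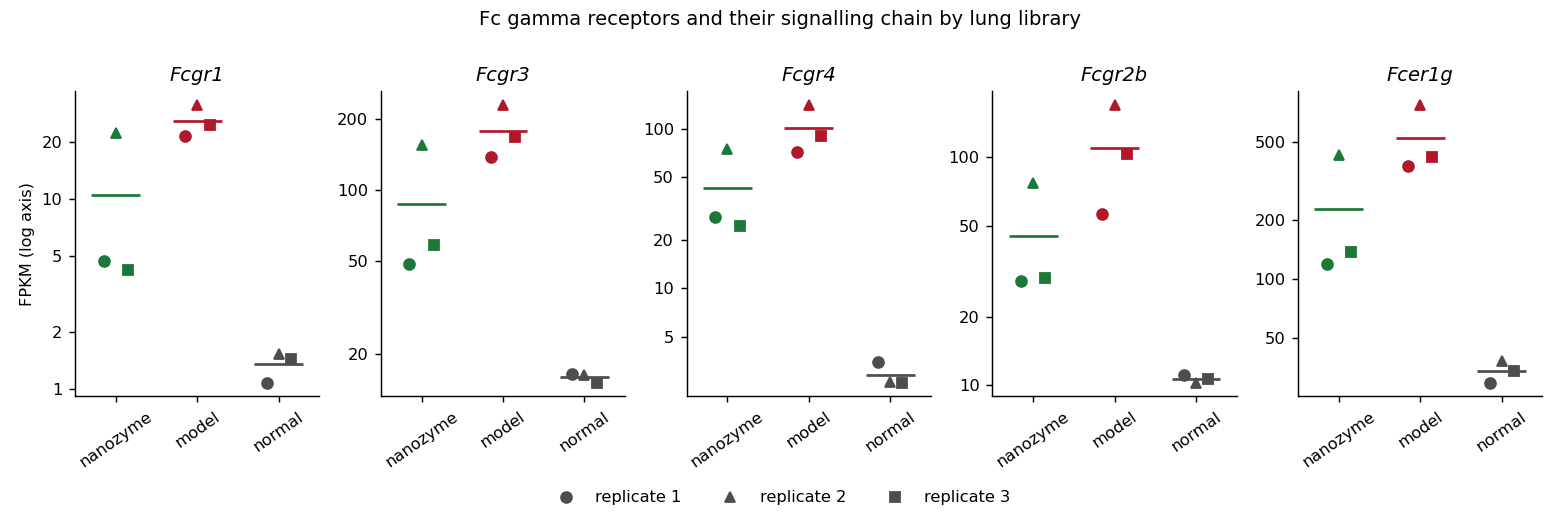
FPKM of each member (log axis) in the 9 lungs, with nanozyme, model and normal groups from left to right, 1 symbol per replicate and a bar at the group mean. Nanozyme replicate 2 (triangle) lies in the range of the model lungs in every panel, and nanozyme replicates 1 and 3 lie between the model and the normal lungs.

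In the nanozyme group the members were split between libraries. Fcgr1 had 4.72, 22.4 and 4.24 FPKM in nanozyme replicates 1, 2 and 3, against 21.5 to 31.2 FPKM in model lungs. Fcgr3 had 48.2, 155 and 58.1 FPKM in nanozyme lungs, against 138 to 229 FPKM in model lungs. For both genes, nanozyme replicates 1 and 3 fell below every model lung and replicate 2 fell inside the model range.

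The same held for the other members. Fcgr4 had 27.9, 74.8 and 24.7 FPKM in nanozyme lungs, against 71.2 to 140 FPKM in model lungs. Fcgr2b had 28.7, 77.4 and 29.7 FPKM in nanozyme lungs, against 56.4 to 170 FPKM in model lungs. For Fcer1g the values were 119, 428 and 137 FPKM in nanozyme lungs and 375 to 767 FPKM in model lungs, so the groups overlapped at all 5 genes, each time through nanozyme replicate 2. Groups that did not overlap, with nanozyme lower, were found at 5.83% of tested genes.

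With all libraries, none of the 5 members passed the test between nanozyme and model lung, and 0.00% of tested genes were called in either direction (limma, Benjamini-Hochberg adjusted p under 0.05). At an unadjusted p under 0.05, 3211 genes passed, 1262 of them lower in nanozyme lung (8.68%), and these included all 5 members. A change at or below the -1.19 of Fcgr3 was found at 2.41% of tested genes. The log2 changes were -1.58 ± 0.50 for Fcgr1, -1.19 ± 0.39 for Fcgr3, -1.34 ± 0.41 for Fcgr4, -1.28 ± 0.45 for Fcgr2b and -1.37 ± 0.47 for Fcer1g, with adjusted p-values of 0.181 to 0.183. The 95% interval for Fcgr4 ran from -2.27 to -0.42.

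Without nanozyme replicate 2, all 5 members were lower in nanozyme than in model lung, where 9.50% of the genes tested in that fit were called lower and 12.4% higher. Fcgr1 then had a log2 change of -2.27 ± 0.17 (adjusted p = 0.000356) and Fcgr3 of -1.71 ± 0.20 (adjusted p = 0.00130). Fcgr4 was at -1.83 ± 0.26 (adjusted p = 0.00300), Fcgr2b at -1.74 ± 0.38 (adjusted p = 0.0163) and Fcer1g at -1.95 ± 0.29 (adjusted p = 0.00355). The calls between nanozyme and model lung therefore turned on that library. It was set aside because it lay near the model lungs in these same data. Leaving it out therefore favours a difference from model lung, and these p-values are descriptive. A fit that weighted the libraries by their spread, in which nanozyme replicate 2 had a weight of 0.191 against 0.819 and 2.08 for nanozyme replicates 1 and 3, also called all 5 lower, where 9.44% of tested genes were called lower and 11.4% higher. Of the other libraries in that fit, model replicate 2 had a weight of 0.249 and normal replicate 3 one of 12.3. The weights were estimated from the same values, so that fit is not a separate test.

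**Figure D2:**
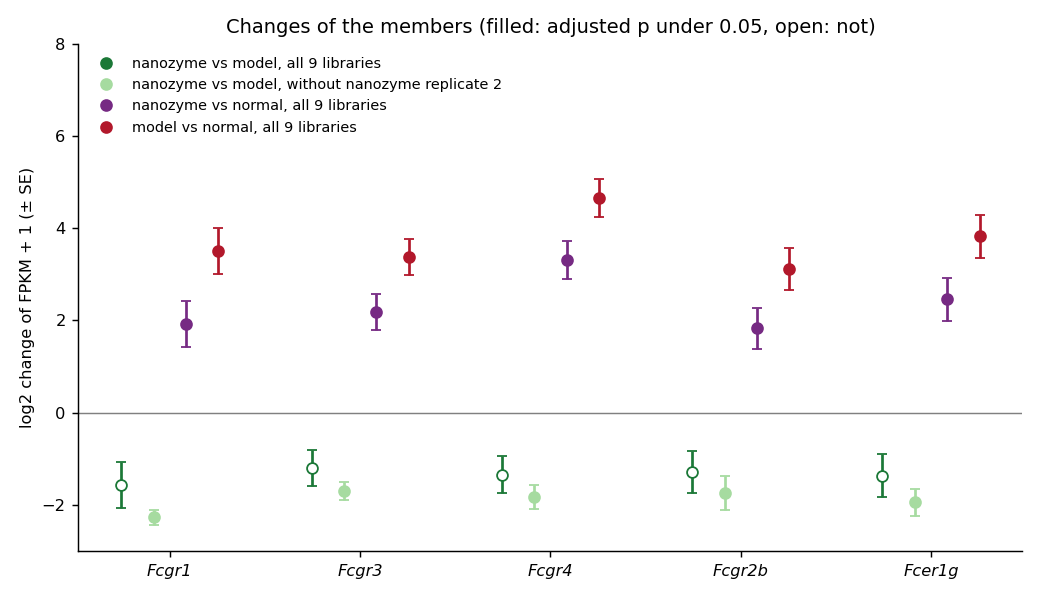
Log2 change of FPKM + 1 with its SE for each member in the 3 comparisons, and for nanozyme against model lung also without nanozyme replicate 2. Filled points passed an adjusted p of 0.05, and only the changes between nanozyme and model lung with all 9 libraries are open.

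Against normal lung all 5 members were higher in nanozyme lung and the groups did not overlap at any of them. This comparison shares its nanozyme and its normal libraries with the 2 above. Fcgr4 again had the largest change, 3.32 ± 0.41 (adjusted p = 0.00196), followed by Fcer1g at 2.46 ± 0.47 (adjusted p = 0.0125) and Fcgr3 at 2.18 ± 0.39 (adjusted p = 0.00996). Fcgr1 changed by 1.93 ± 0.50 (adjusted p = 0.0384) and Fcgr2b by 1.83 ± 0.45 (adjusted p = 0.0317). The place of Fcgr1 in this order depends on the pseudocount. The ratio of the means was 7.75 for Fcgr1, above 6.68 for Fcer1g and 5.44 for Fcgr3. Of all tested genes, 8.39% were called higher in this comparison and 5.50% lower, 1.98% had a change at or above that of Fcgr2b, and 22.1% had nanozyme libraries all above the normal ones.

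Without nanozyme replicate 2, 4 members remained called against normal lung, where 9.24% of genes were called higher and 4.27% lower, and Fcgr2b did not pass (1.37 ± 0.38, adjusted p = 0.0515). The calls of Fcgr3 and Fcgr4 were kept whichever library was left out. Leaving out normal replicate 1 or normal replicate 3 ended those of Fcgr1 (adjusted p = 0.130 and 0.111), Fcgr2b (0.101 and 0.101) and Fcer1g (0.0547 and 0.0508), so that 2 of 5 members were called, and without normal replicate 2 those of Fcgr1 (0.0801) and Fcgr2b (0.0774) ended and 3 members were called. Over all tested genes, 4.37%, 5.58% and 4.18% were called higher without normal replicates 1, 2 and 3, each below the share with all libraries.

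The nanozyme lungs can also be placed on the distance between the group means of normal lung (0%) and model lung (100%) on the log2 scale of FPKM + 1. Nanozyme replicate 2 stood at 88.3% of that distance for Fcgr2b and at 92.3% to 94.9% for the other members. Nanozyme replicates 1 and 3 stood at 36.8% and 33.2% for Fcgr1, at 43.3% and 44.8% for Fcgr2b, at 45.5% and 53.4% for Fcgr3, at 46.5% and 51.8% for Fcer1g and at 62.5% and 58.8% for Fcgr4. Fcgr1 thus had the lowest share of its own distance in these libraries, and Fcgr4 the highest. The share depends on the pseudocount where values are low, as for Fcgr1 in normal lung. With all libraries and a pseudocount of 0.1, the log2 change between nanozyme and normal lung was 2.44 for Fcgr1 and 1.91 for Fcgr2b. It was 2.24 for Fcgr3 and 2.49 for Fcer1g, so that Fcgr1 then stood above Fcgr3.

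The mix of receptors differed between normal lung and the other groups. Fcgr4 made up 25.5%, 22.7% and 21.2% of the summed FPKM of the 4 receptors in nanozyme lungs and 24.8%, 24.5% and 23.2% in model lungs, against 10.7%, 8.45% and 8.64% in normal lungs. The inhibitory receptor made up 26.2%, 23.5% and 25.4% in nanozyme lungs and 19.6%, 29.8% and 26.9% in model lungs, against 34.4%, 33.4% and 35.8% in normal lungs. The shares are computed from FPKM, which are per length, and they are described here without a test because they are scores over genes chosen with results known.

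Per unit of Fcgr2b, Fcgr4 stood at 0.975, 0.967 and 0.832 in nanozyme lungs and at 1.26, 0.824 and 0.863 in model lungs, against 0.312, 0.253 and 0.241 in normal lungs. Nanozyme replicates 1 and 3, whose receptor levels were far below those of the model lungs, had the same range of this ratio as nanozyme replicate 2. On the log2 scale the difference of group means was -0.07 between nanozyme and model lung, 1.79 between nanozyme and normal lung and 1.85 between model and normal lung.

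For the other activating receptors, the ratio to Fcgr2b separated normal lung from the other groups less fully. Fcgr1 stood at 0.165, 0.289 and 0.143 per unit of Fcgr2b in nanozyme lungs and at 0.381, 0.184 and 0.238 in model lungs, against 0.098, 0.149 and 0.134 in normal lungs. Every model lung lay above the normal range for Fcgr1, as did nanozyme replicates 1 and 2, while nanozyme replicate 3 lay inside it. Fcgr3 stood at 1.68, 2.00 and 1.96 in nanozyme lungs and at 2.45, 1.35 and 1.62 in model lungs, against 1.497, 1.59 and 1.42 in normal lungs. Here model and normal lungs overlapped, while every nanozyme lung lay above the normal range. Summed, the 3 activating receptors stood at 2.82 to 3.26 per unit of Fcgr2b in nanozyme lungs and 2.36 to 4.09 in model lungs, against 1.79 to 1.99 in normal lungs. The signalling chain kept pace with the receptors: Fcer1g stood at 1.47 to 1.70 per unit of the summed activating receptors in nanozyme lungs and 1.49 to 1.92 in model lungs, against 1.42 to 1.87 in normal lungs, with all 3 groups overlapping.

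**Figure D3:**
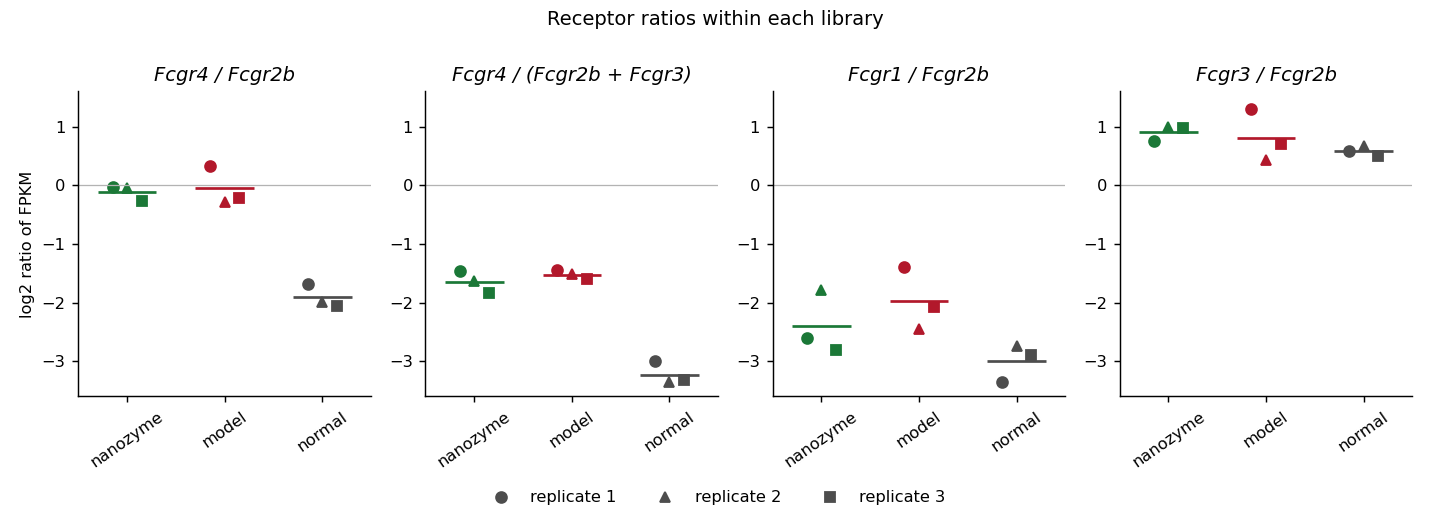
Log2 ratios of FPKM within each library, for nanozyme, model and normal lungs from left to right, with a bar at the group mean. The ratio of Fcgr4 to Fcgr2b lies between -0.28 and 0.34 in the nanozyme and model lungs and between -2.05 and -1.68 in the normal lungs, whereas the ratio of Fcgr3 to Fcgr2b overlaps between model and normal lungs.

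Fcgr2b and Fcgr3 share stretches of identical sequence, and how the authors' counting placed reads from them is not given in the sources used here. Of the 50-base windows of the longest GENCODE transcript of Fcgr3, 12.8% also occur in Fcgr2b, and 3.53% of its 100-base windows do. The longest transcripts of Fcgr1, Fcgr4 and Fcer1g share no 50-base window with the transcripts of another gene. An annotated antisense gene also overlaps the 5′ end of Fcgr2b, and whether the counting used strand is not given. The split between Fcgr2b and Fcgr3 is therefore less certain than the other values. With their FPKM summed to 1 row, the log2 change was 3.33 between model and normal lung and 2.08 between nanozyme and normal lung, both called, and -1.24 between nanozyme and model lung, not called (adjusted p = 0.182). Set against this sum, Fcgr4 stood at 0.364, 0.322 and 0.281 in nanozyme lungs and 0.365, 0.351 and 0.329 in model lungs, against 0.098 to 0.125 in normal lungs.

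The genes around the receptors were described by 7 lists, whose medians are given beside the median log2 change of all tested genes, -0.12 between model and normal lung. In that comparison 17.4% of all tested genes were called higher and 22.7% lower. Of 7 tested receptors that, like the activating Fc gamma receptors, pair with Fcer1g, all 7 rose in model lung, with a median log2 change of 2.71. The C-type lectin receptors Clec4d and Clec4n rose by 6.12 ± 0.69 and 3.89 ± 0.45 (adjusted p = 0.000664 and 0.000694), and the NK cell receptor gene Ncr1 rose by 1.28 ± 0.14 (adjusted p = 0.000583). Of 11 tested genes for other Fc receptors and adaptors, 5 rose and 0 fell (median 1.23). These included Tyrobp, the sister chain of Fcer1g in many myeloid receptors, at 428 ± 178 FPKM in model lung and 51.5 ± 2.17 FPKM in normal lung (2.96 ± 0.32, adjusted p = 0.000546), and Hcst, an adaptor of NK cells (1.23 ± 0.20, adjusted p = 0.00260). Fcer2a, the low-affinity receptor for IgE, rose by 1.83 ± 0.19 (adjusted p = 0.000525).

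Downstream of the ITAM, 23 of 31 kinases and adaptors rose and 1 fell in model lung (median 1.44). Syk, the kinase that docks on the ITAM, was at 58.9 ± 10.2 FPKM in model lung and 7.69 ± 0.517 FPKM in normal lung (2.77 ± 0.22, adjusted p = 0.000180). The phospholipase gene Plcg2 rose by 1.87 ± 0.15 and the Src-family kinase gene Fgr by 3.43 ± 0.30 (adjusted p = 0.000194 and 0.000248). The gene that fell, named after its value was seen, was Sos1, an exchange factor of Ras (-0.39 ± 0.11, adjusted p = 0.0199). No gene of the list was called lower with equal column sums, with median-of-ratios scaling or without any 1 of the normal libraries.

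On the inhibitory side, 18 of 21 phosphatases and ITIM receptors rose and 0 fell (median 2.15). Inpp5d, whose product the tail of Fcgr2b recruits, was at 21.3 ± 1.45 FPKM in model lung and 7.16 ± 0.203 FPKM in normal lung (1.45 ± 0.10, adjusted p = 0.000134). The adaptor gene Dok2 rose by 2.15 ± 0.17 and the B cell and macrophage ITIM receptor gene Cd72 by 2.44 ± 0.21 (adjusted p = 0.000180 and 0.000234).

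Of the genes of the phagocytic cup and the oxidase, 21 of 27 rose and 2 fell (median 0.73), among them the GTPase gene Rac2 (2.62 ± 0.18, adjusted p = 0.000110), its exchange factor Dock2 (1.79 ± 0.13, adjusted p = 0.000136) and the phospholipase D family member Pld4 (2.07 ± 0.10, adjusted p = 4.28e-05). The 2 that fell, named after their values were seen, were the actin-severing protein gene Gsn (-1.79 ± 0.35, adjusted p = 0.00516) and Amph, which binds curved membrane (-0.72 ± 0.20, adjusted p = 0.0233). Of the regulators of Fc gamma receptor expression, 19 of 23 rose and 2 fell (median 1.45). Spi1, which encodes PU.1, was at 90.6 ± 12.4 FPKM in model lung and 10.1 ± 1.13 FPKM in normal lung (3.05 ± 0.27, adjusted p = 0.000273). Tgfb1 rose by 1.26 ± 0.12 and the interleukin-4 receptor gene Il4ra by 1.64 ± 0.18 (adjusted p = 0.000389 and 0.000675). The complement component gene Hc (-2.10 ± 0.39, adjusted p = 0.00460) and the transcription factor gene Cebpa (-0.63 ± 0.18, adjusted p = 0.0245) fell, and were also named after their values were seen. With equal column sums, and without model replicate 2 or 3 or normal replicate 2 or 3, the number called lower was 1 among the effectors and 1 among the regulators.

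Few ligand genes could be read. Of 12 listed immunoglobulin and pentraxin genes 4 were in the file. The IgG heavy chain genes were among those not found under the listed symbols, and the pentraxin genes Crp and Apcs failed the filter. Ptx3, the long pentraxin, had 0.763, 3.76 and 0.631 FPKM in nanozyme lungs and 6.16, 7.91 and 8.87 FPKM in model lungs, against 0.642, 0.590 and 0.524 FPKM in normal lungs. Its log2 change between model and normal lung was 2.44 ± 0.37 (adjusted p = 0.00210). Jchain, the joining chain of plasma cells, had 143, 3.69 and 31.1 FPKM in nanozyme lungs, against 2.60, 7.93 and 3.16 FPKM in model lungs (2.45 ± 1.04, adjusted p = 0.217). Without nanozyme replicate 2, the log2 change between nanozyme and model lung was 3.73 ± 0.63 for Jchain (adjusted p = 0.00625) and -2.34 ± 0.16 for Ptx3 (adjusted p = 0.000302).

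Between nanozyme and model lung, 0 genes of these lists were called with all libraries, where the median of all tested genes was 0.09. The list medians were -1.04 for the receptors that pair with Fcer1g, -0.34 for other Fc receptors and adaptors, -0.32 for kinases and adaptors, -0.58 for the inhibitory genes, -0.23 for the effectors and -0.67 for the regulators, against -1.34 for the 5 members. Without nanozyme replicate 2, the genes called lower were 4 of 7 receptors that pair with Fcer1g, 5 of 11 other Fc receptors and adaptors, 13 of 31 kinases and adaptors, 11 of 21 inhibitory genes, 12 of 27 effectors and 13 of 23 regulators. The genes called higher there were 4 of the other Fc receptors and adaptors, 0 of the receptors that pair with Fcer1g and 1 in each of the other 4 lists. Of all genes tested in that fit, 9.50% were called lower and 12.4% higher. Nanozyme replicate 2 was set aside for lying near the model lungs, so the p-values of that fit are descriptive. Syk was then at -0.95 ± 0.16 (adjusted p = 0.00641), Spi1 at -1.34 ± 0.14 (adjusted p = 0.000821) and Inpp5d at -0.48 ± 0.10 (adjusted p = 0.0172), while Plcg2 (-0.27 ± 0.17, adjusted p = 0.298) and Pld4 (-0.29 ± 0.10, adjusted p = 0.0738) did not pass.

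Against normal lung, nanozyme lung had 6 of 7 receptors that pair with Fcer1g, 4 of 11 other Fc receptors and adaptors, 19 of 31 kinases and adaptors, 17 of 21 inhibitory genes, 16 of 27 effectors and 8 of 23 regulators higher, and 1 gene of these lists, Sos1, lower. The median of all tested genes was -0.01 in this comparison, and 8.39% of them were called higher and 5.50% lower. Without nanozyme replicate 2, the genes called higher were 6 of 7 receptors that pair with Fcer1g, 6 of 11 other Fc receptors and adaptors, 18 of 31 kinases and adaptors, 17 of 21 inhibitory genes, 16 of 27 effectors and 7 of 23 regulators. Of all genes tested in the fit without nanozyme replicate 2, 9.24% were called higher and 4.27% lower. The count of regulators fell to 3 or 4 when any of the normal libraries was left out.

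**Figure D4:**
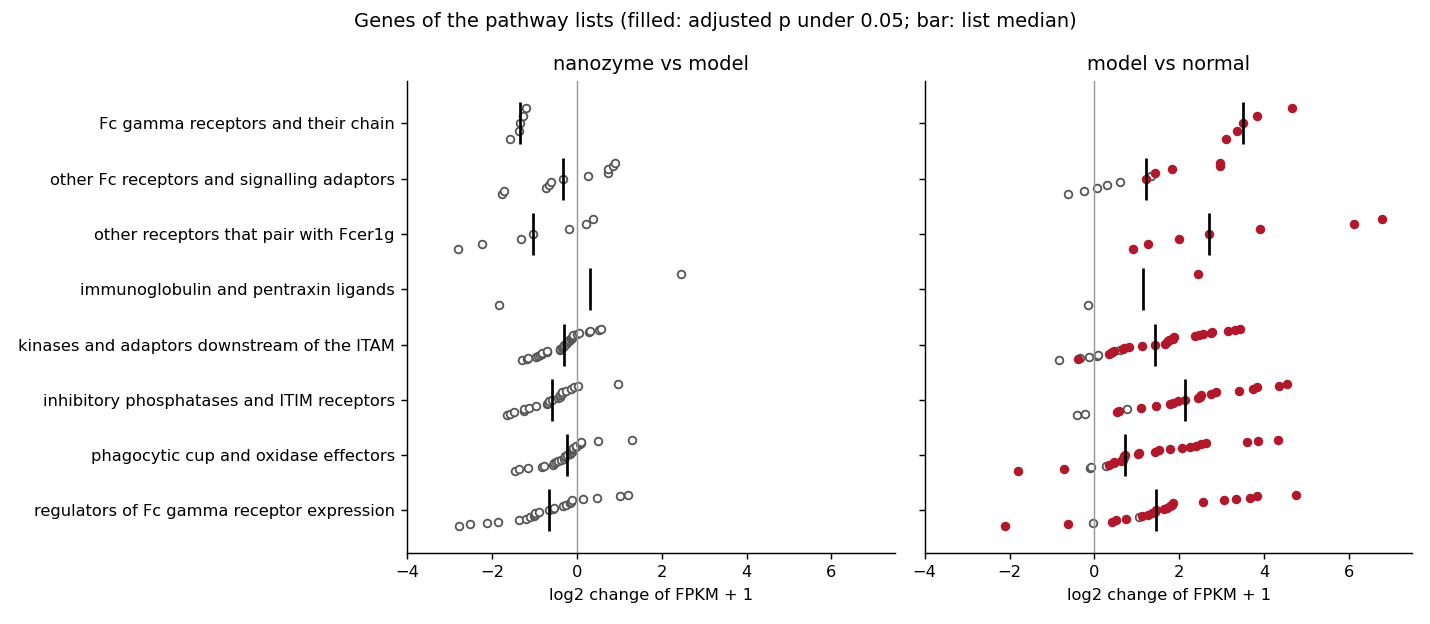
Log2 change of FPKM + 1 of each tested gene in the 5 members and the 7 lists, between nanozyme and model lung (left) and between model and normal lung (right); filled points passed an adjusted p of 0.05 and black bars are list medians. On the right the members lie at 3.11 to 4.66, to the right of every list median, and on the left all points are open.

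Markers of several leukocytes moved beside the members. The summed FPKM of 16 monocyte and recruited macrophage markers was 819, 1466 and 761 in nanozyme lungs and 1563 to 2126 in model lungs, against 250 to 255 in normal lungs, and 14 of 16 rose between model and normal lung. That of 15 neutrophil markers was 1440, 6920 and 1876 in nanozyme lungs and 6507 to 8973 in model lungs, against 129 to 417 in normal lungs, and 12 of 13 tested rose. The member that did not, Ltf, had 299.6, 8.01 and 142.9 FPKM in the normal libraries, and without it the normal sums were 117.0 to 121.7 FPKM. In nanozyme replicate 2 the neutrophil sum, like the members, lay within the model range. The neutrophil surface marker Ly6g was listed at 0 in all 3 normal libraries and had 12.2 to 16.5 FPKM in model lungs, and the early granule genes Mpo and Elane failed the filter.

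The other lists were laid out differently across the libraries. Alveolar macrophage markers summed to 949 to 1197 FPKM in nanozyme lungs and 898 to 1047 in model lungs, against 427 to 497 in normal lungs, and 5 of 14 rose and 1 fell between model and normal lung, with a median log2 change of 0.06. The changes of the 14 genes ran from -2.24 to 2.17 there, and between nanozyme and normal lung 7 of 14 rose and 0 fell. The abundant genes Chil3 (1.78, adjusted p = 0.000228) and Ccl6 (1.37, adjusted p = 0.000679) were among those that rose between model and normal lung, while Siglecf was at -0.28 (adjusted p = 0.249) and Pparg at -0.10 (adjusted p = 0.648). NK cell markers summed to 167 to 270 FPKM in nanozyme lungs and 145 to 175 in model lungs, against 47.3 to 65.1 in normal lungs, and 8 of 10 rose between model and normal lung. B cell markers summed to 254, 85.9 and 211 FPKM in nanozyme lungs and 63.9 to 84.5 in model lungs, against 56.7 to 76.6 in normal lungs, so that nanozyme replicates 1 and 3, where the members were low, had the highest sums, and 1 of 10 rose between model and normal lung. Of the mast cell and basophil markers, 4 of 11 passed the filter and 0 changed between model and normal lung. Fcer1a, the IgE receptor subunit that also pairs with Fcer1g, failed the filter and was near 0 in every group. It was listed at 0 in all 3 model libraries, at 0, 0 and 0.145 FPKM in normal lungs and at 0.167 to 0.179 FPKM in nanozyme lungs. Dendritic cell markers (0 of 9 higher, 1 lower) and platelet markers (1 of 6 higher, 0 lower) summed to 25.7 to 34.5 and 46.6 to 62.7 FPKM in model lungs, against 37.6 to 43.2 and 40.9 to 42.9 FPKM in normal lungs. The epithelial and endothelial markers, of which Scgb1a1 and Sftpc were the most abundant, went the other way, with 0 of 10 higher and 4 lower between model and normal lung. The part of these cell types in the changes of the members was not tested.

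**Figure D5:**
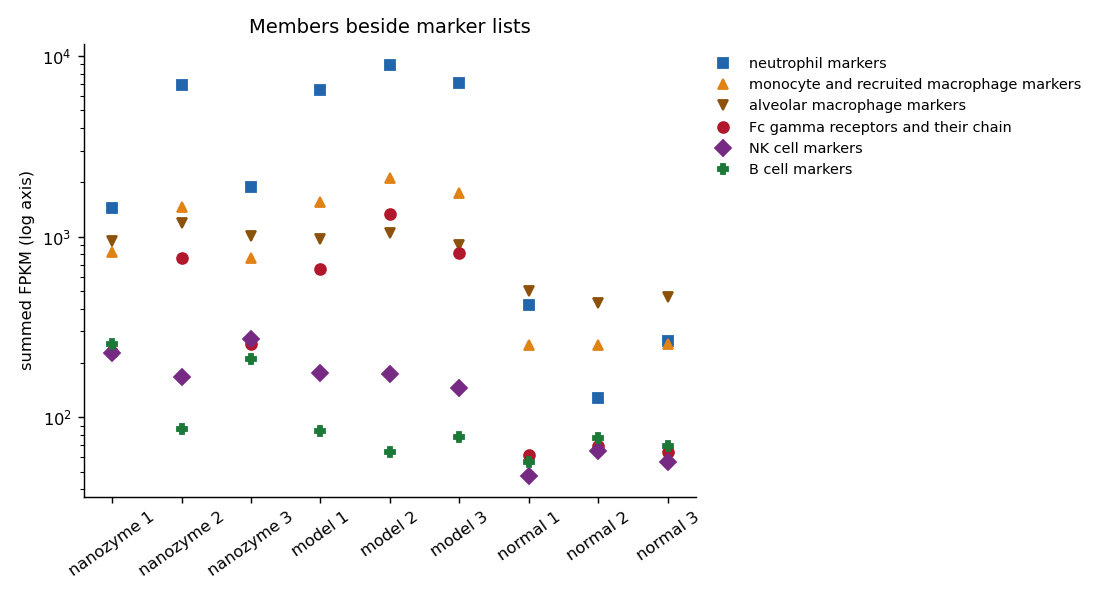
Summed FPKM (log axis) of the 5 members and of 5 marker lists in each of the 9 libraries. The neutrophil and monocyte sums of nanozyme replicate 2 (6920 and 1466) stand above those of nanozyme replicates 1 and 3, as the members do, whereas its B cell sum (85.9) stands below theirs.

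Across the 9 libraries the members were close to one another on the log2 scale, with Pearson's r from 0.965 (Fcgr1 and Fcgr4) to 0.997 (Fcgr3 and Fcer1g). These values are descriptions over libraries that share a 3-group structure. The 8 genes whose pattern was most like the mean profile of the members were Aoah, Pygl, Ncf1, Igsf6, Trem3, Cd53, Slc2a6 and Acp5, with r of 0.9978 to 0.9994. Aoah, which encodes an enzyme that deacylates bacterial lipopolysaccharide, had 26.98 ± 11.3 FPKM in model lung and 0.307 ± 0.0547 FPKM in normal lung (4.34 ± 0.51, adjusted p = 0.000749). Ncf1, a cytosolic subunit of the phagocyte oxidase, had 163 ± 41.8 FPKM in model lung and 10.1 ± 0.810 FPKM in normal lung (3.85 ± 0.44, adjusted p = 0.000700). The leukocyte tetraspanin gene Cd53 rose by 2.52 ± 0.29 and the acid phosphatase gene Acp5 by 3.17 ± 0.35 (adjusted p = 0.000705 and 0.000580).

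The nearest genes of each single member were also ranked, by r values close to one another. Trem3, Igsf6 and Cd53 recur among them, and whether any pattern is particular to 1 member was not tested. The nearest genes of Fcgr1 were Nadk, Mpeg1 and Lilr4b (r of 0.9985 to 0.9990). Those of Fcgr2b were Trem3, Fpr1 and Bin3 (0.9953 to 0.9961) and those of Fcgr3 were Siglece, Clec4d and Igsf6 (0.9977 to 0.9992). Fcgr4 was nearest to the kinase gene Fgr, the integrin gene Itgb2 and the acute-phase gene Saa3 (0.9968 to 0.9970), and Fcer1g to the oxidase subunit gene Cyba, the cathepsin gene Ctss and Cd53 (0.9972 to 0.9987). Siglece, an ITIM-bearing lectin, rose by 4.35 ± 0.49 in model lung (adjusted p = 0.000657), and Mpeg1, a pore-forming protein of macrophages, by 3.34 ± 0.46 (adjusted p = 0.00141). Lilr4b has a closely similar paralog in the mouse genome, and its value is uncertain for that reason.

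With median-of-ratios scaling the median log2 change of all tested genes shifted by 0.127 between model and normal lung and by -0.102 between nanozyme and model lung, small beside the members' changes. The share of calls that were higher between model and normal lung was 43.4% as reported, 54.2% with equal column sums and 55.5% with median-of-ratios scaling. Between nanozyme and normal lung it was 60.4% as reported, 70.5% with equal column sums and 46.8% with quantile normalization. Each member kept its direction and its call between model and normal lung under all 20 alternatives.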

How the data were processed

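RNA sequencing was done on 9 mouse lungs, 3 per group, each library being 1 mouse, per the labels' protocols. The protocols describe TRIzol extraction, oligo(dT) selection and marking of the second strand. HISAT2 and GRCm38 are named in the submitters' processing notes. The authors deposited FPKM values, 1 column per library. Versions, annotation, counting tool, strand setting and any scaling between libraries are not given in the sources used here. Read counts were not used, so depth and counting error are unknown. Whole-read steps were looked for in the ratios of low values between pairs of libraries, and the fullest bin of any pair held 2.38% of them. No reference share was computed, so this search cannot tell whether such steps are present.

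A gene was tested where 3 or more libraries reached 1 FPKM, which 14540 of the 25526 names did. The test was limma 3.58.1 under R 4.3.3 on log2(FPKM + 1), two-sided, fitted to the 9 libraries together with a term for each group and moderated with a trend on mean level. Called means a Benjamini-Hochberg adjusted p under 0.05 over the 14540 genes. Permuting 3 mice against 3 gives an exact p of 0.1 at the least and was not done. The members and the lists were chosen with earlier results of these data known. Named genes are the members, up to 3 called genes per pathway list with the smallest adjusted p (up to 2 between nanozyme and model lung), and the genes most correlated with the members. Candidates for the correlated genes were tested genes with a mean of at least 1 FPKM, without the members and predicted-gene names. Markers listed at 0, failing the filter or setting a list's sum were named after their values were seen. Siglecf and Pparg were named outside these rules. The motifs were chosen with the start regions in view. The fit was checked on simulated data. Alternatives were other pseudocounts, filters, scalings, weights, a replicate block, Fcgr2b and Fcgr3 summed, and each library left out. Libraries with the same replicate number did not deviate together in all pairs of groups, so the numbers were not taken to pair the mice. Figures used Python 3.11.15 and matplotlib 3.10.9.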

Additional observations from a re-analysis of the deposited data

How the results depend on the processing

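The 5 members kept direction in all 3 comparisons under all 20 alternatives, and between model and normal lung each also kept its call. Between nanozyme and model lung, 0 members were called except with sample weights (5 lower: Fcgr1 -2.07, Fcgr2b -1.35, Fcgr3 -1.42, Fcgr4 -1.59 and Fcer1g -1.59) and without nanozyme replicate 2 (5 lower). Leaving out 1 library moved these changes over -2.27 to -1.20 for Fcgr1, -1.74 to -0.90 for Fcgr2b, -1.71 to -0.87 for Fcgr3, -1.83 to -1.05 for Fcgr4 and -1.95 to -1.03 for Fcer1g, with 0 to 5 members called lower. Sample weights, whose iteration stopped short of its tolerance, gave 1662 genes higher and 1372 lower there, no filter gave 1 and 3, and leaving out 1 library gave 0 to 1795 higher and 0 to 1372 lower. Between nanozyme and normal lung, no filter left 3 members called, with Fcgr1 at 1.93 (adjusted p = 0.0611) and Fcgr2b at 1.83 (0.0508), and a fit of only the 2 groups compared left Fcgr1 at 1.93 (0.0795). Leaving out 1 library gave 2 to 5 members called, with Fcgr1 at 1.23 to 2.31, Fcgr2b at 1.37 to 2.07 and Fcer1g at 1.88 to 2.80. The call of Fcgr1 also ended when any 1 of the model libraries was left out. Over all genes tested in each fit, 5.26% were called higher with no filter and 7.69% with only the 2 groups, against 8.39% as reported. Without model replicates 1, 2 and 3 the share was 7.34%, 9.30% and 7.88%, and with any 1 library left out it was 4.18% to 9.30%. The cause of these changes was not tested.

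Over all genes, a mean FPKM of at least 5, which tests fewer genes, gave 2152 lower between model and normal lung, and 807 higher and 478 lower between nanozyme and normal lung. Quantile normalization gave 1340 lower and sample weights 3164 higher and 2581 lower between nanozyme and normal lung. Leaving out 1 library gave 1840 to 3830 lower between model and normal lung, and 599 to 1341 higher and 135 to 923 lower between nanozyme and normal lung. Among the other named genes 1 change reversed: Dock2 between nanozyme and model lung ranged from -0.201 to 0.005 with 1 library left out, the last without model replicate 3. With the replicate block the counts were 2402 higher and 3226 lower, 0 and 0, and 1117 and 617 in the 3 comparisons, and no member gained or lost a call. The same-numbered libraries correlated from -0.331 to 0.227 in their deviations, so the block pairs numbers, not mice. No count or counting error is known for any value, which limits values near or under 1 FPKM, such as Fcgr1 in normal lung.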
